A study of Mus musculus with 4 samples.

Results

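JunB-alone peaks near genes were JunB peaks of activated regulatory T (Treg) cells that touched no BATF peak and no IRF4 peak. They were chosen from the peak lists by the overlap itself: a JunB peak had to share not even 1 bp with any peak of the BATF or IRF4 list of Junb-sufficient cells, and its centre had to lie within 100 kb of a transcription start site (TSS) of a protein-coding transcript. The rule was met by 10997 of 29659 JunB peaks, out of 103355 peaks in all 4 lists. Among the 22575 JunB peaks that lay within 100 kb of a TSS, this was 48.7%. That share is what the rule selected on, and it is given as a description.

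The study asked where JunB, BATF, and IRF4 bind in Treg cells and whether IRF4-binding depends on JunB. Chromatin immunoprecipitation-sequencing (ChIP-seq), which recovers and sequences DNA bound by a protein, was performed on CD4+CD25+ Treg cells from mouse spleens. The cells had been stimulated through CD3 and CD28 with IL-2 for 60 h, and their chromatin was cut with micrococcal nuclease. There were 4 libraries, 1 per condition: JunB, BATF, and IRF4 in Junb-sufficient cells, and IRF4 in Junb-deficient cells. The sample labels give the genotypes as Foxp3cre JUNB+/+ and Foxp3cre JUNBFl/Fl on C57BL/6, so that both groups would carry Cre driven by the Treg-specific Foxp3 promoter. The study's account of the ChIP-seq experiment gives Junb fl/fl and Cd4Cre Junb fl/fl mice instead, in which Cre would be active in all cells of the T lineage and absent from the controls. In Junb-sufficient cells the antibody field of the labels also swaps BATF with IRF4, and libraries were named by their titles. Membership is the same either way, because the rule used both lists alike.

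JunB belongs to the AP-1 family of basic leucine zipper transcription factors. AP-1 proteins bind DNA as dimers at the palindrome TGANTCA. BATF is a family member that lacks a transactivation domain and pairs with Jun proteins, and BATF-JUN dimers recruit IRF4 to AP-1-IRF composite elements (AICE). These factors take part in the change of resting Treg cells into effector Treg (eTreg) cells, which express molecules such as ICOS and CTLA4. Jun proteins also pair with Fos and ATF proteins, none of which was immunoprecipitated here.

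The peaks are shown by their reference sequence (mm9, plus strand, whole peak), so that peaks with and without the AP-1 palindrome can be compared by eye. In the first set, chosen for their high place in the list or for their gene, capitals mark each match to TGANTCA.
N4bp1 intron, chr8:89380339-89380489: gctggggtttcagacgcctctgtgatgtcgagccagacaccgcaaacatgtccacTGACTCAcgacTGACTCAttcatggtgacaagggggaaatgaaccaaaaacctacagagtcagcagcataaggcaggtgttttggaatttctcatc
Cd247 intron, chr1:167731976-167732126: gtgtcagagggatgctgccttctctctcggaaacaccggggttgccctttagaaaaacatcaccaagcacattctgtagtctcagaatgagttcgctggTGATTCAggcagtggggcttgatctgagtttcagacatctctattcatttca
Trpm6 upstream, chr19:18822013-18822163: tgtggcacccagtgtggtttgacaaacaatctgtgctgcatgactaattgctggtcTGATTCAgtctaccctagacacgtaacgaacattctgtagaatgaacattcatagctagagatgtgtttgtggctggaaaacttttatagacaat
Klrc1 upstream, chr6:129629701-129629851: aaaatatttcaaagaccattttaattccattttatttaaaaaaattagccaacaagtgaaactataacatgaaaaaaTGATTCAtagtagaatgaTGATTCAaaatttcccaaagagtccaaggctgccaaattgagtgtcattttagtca
Maf upstream, chr8:118245956-118246106: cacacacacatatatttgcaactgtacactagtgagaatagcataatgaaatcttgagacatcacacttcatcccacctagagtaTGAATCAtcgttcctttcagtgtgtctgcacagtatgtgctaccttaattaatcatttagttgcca
Gzmb upstream, chr14:56944426-56944576: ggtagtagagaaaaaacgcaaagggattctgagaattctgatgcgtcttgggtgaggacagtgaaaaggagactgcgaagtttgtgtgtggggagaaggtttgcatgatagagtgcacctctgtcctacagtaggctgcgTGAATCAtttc
The N4bp1 peak held 2 copies of TGACTCA, 11 bases apart from start to start and close to its centre. It alone of this set held the canonical form, TGAGTCA or its complement TGACTCA. Among all JunB-alone peaks with a match, 73.4% held that form, so the set does not show the usual proportion. Cd247 encodes the CD3 zeta chain of the T-cell receptor complex, and its peak also overlapped an IRF4 peak of Junb-deficient cells. Klrc1 encodes the receptor NKG2A, Maf encodes the transcription factor c-Maf, and Gzmb encodes the protease granzyme B. In the Gzmb peak the only match lay near the right edge. That peak lies 63.4 kb upstream of Gzmb, and its nearest gene is Atp12a.

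A second set, picked in the same way, held no AP-1 match, which was the more frequent case.
Alcam intron, chr16:52443365-52443515: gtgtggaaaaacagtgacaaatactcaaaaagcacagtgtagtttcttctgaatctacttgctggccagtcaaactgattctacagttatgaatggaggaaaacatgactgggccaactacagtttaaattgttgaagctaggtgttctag
Ctla4 upstream, chr1:60962498-60962648: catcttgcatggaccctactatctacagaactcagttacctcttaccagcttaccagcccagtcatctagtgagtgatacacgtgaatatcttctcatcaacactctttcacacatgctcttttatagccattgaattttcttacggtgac
Prdm1 downstream, chr10:44095499-44095649: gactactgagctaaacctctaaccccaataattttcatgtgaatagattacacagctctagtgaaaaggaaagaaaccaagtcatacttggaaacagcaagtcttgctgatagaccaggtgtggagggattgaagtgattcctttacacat
Gm10716 upstream, chr9:3029739-3029889: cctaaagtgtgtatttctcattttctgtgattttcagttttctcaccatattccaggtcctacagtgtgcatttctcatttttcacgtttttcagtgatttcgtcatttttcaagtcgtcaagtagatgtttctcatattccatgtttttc
Alcam encodes an adhesion receptor for CD6, and its peak had the highest place in the list, 125 of 29659, among those with single-copy sequence. The second sequence lies 3.3 kb upstream of the nearest TSS of Ctla4, the inhibitory receptor, and 72.2 kb upstream of Icos, the costimulatory receptor. It stood at place 1723 and overlapped an IRF4 peak in Junb-deficient cells. Prdm1 encodes the repressor Blimp-1, and the peak shown for it lies 82.9 kb downstream of a Prdm1 TSS, with Atg5 as its nearest gene. The Gm10716 peak is shown as an example of sequence that occurs more than once in the genome, with a median of 4 copies of its words.

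JunB-alone peaks stood mostly late in the JunB list. The score column is 1 for every peak, and the place in the list was used as a stand-in for peak strength. The file headers do not state the order of the list, so that an order by strength is an assumption here and in every comparison stratified by place. The median place was 18303 for JunB-alone peaks and 6188 for the 7590 peaks within 100 kb of a TSS that overlapped both BATF and IRF4. When the list was divided into 10 parts of equal size, 190 of 2471 peaks near genes in the first part were JunB-alone (7.69%, exact 95% interval 6.67 to 8.81), and 1500 of 2052 in the last (73.1%, lower bound 71.1). The share rose at every step between these. The list runs in 214 stretches of genomic order, of which the largest holds 2162 peaks, so neighbouring places within a stretch carry no order of strength. Intervals here and below reflect only how many peaks were counted. The spread between animals or libraries is not in them, since no condition had a second library, and no test between conditions was made.

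**Figure D1:**
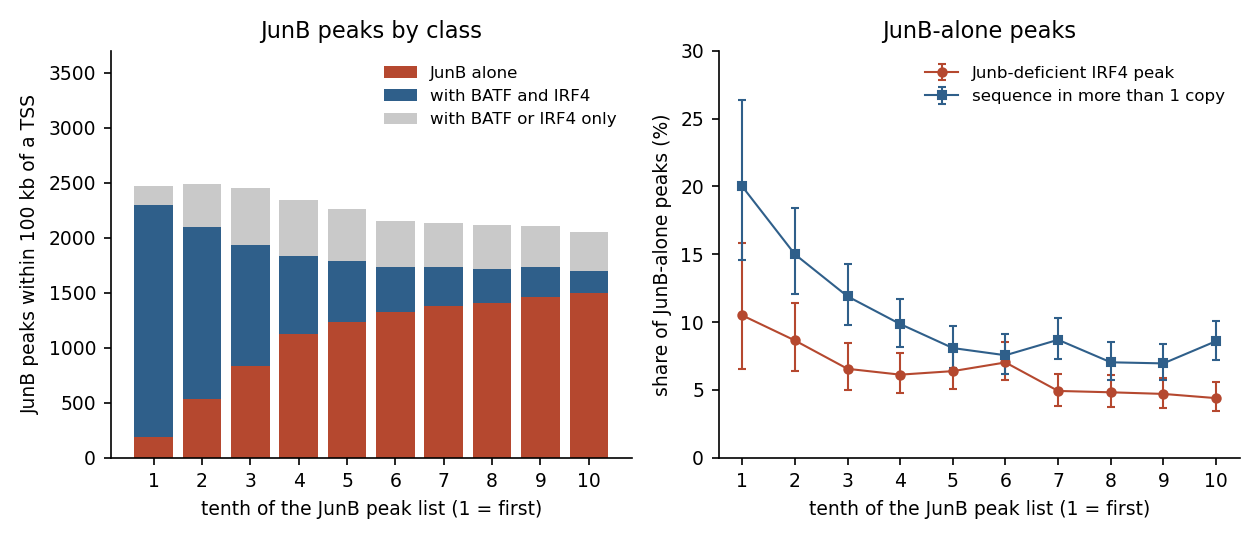
Left, number of JunB peaks within 100 kb of a TSS by class in 10 parts of equal size along the JunB list; JunB-alone peaks went from 190 to 1500 and peaks with BATF and IRF4 from 2112 to 200. Right, share of JunB-alone peaks (%) that overlapped an IRF4 peak of Junb-deficient cells or lay in sequence present more than once in the genome, with exact binomial 95% intervals; both were highest in the first part.

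The lists had been made with different depth and settings, and these values move with membership. JunB peaks had a threshold of 10 tags and the width of the sequences above, whereas BATF and IRF4 peaks of Junb-sufficient cells were 613 bp wide with a threshold of 19. Recorded tags ranged from 21127029 to 27399986 per library, with the most for JunB. The tags used for calling were 16.0 M for JunB, 16.1 M for BATF, 17.3 M for IRF4, and 17.9 M for IRF4 in Junb-deficient cells, and the share of tags in peaks was 4.27% for JunB, 5.03% for BATF, and 12.76% for IRF4. The filter on local background removed 5.25% of putative JunB peaks, but 36.2% for BATF and 37.4% for IRF4. Their part in the absence of BATF and IRF4 peaks was not tested. At the limits of the rule, the farthest member lay 100000 bp from a TSS of Dlg2 and the nearest peak outside it 100037 bp from Bcl2l11. A member near Glt8d2 touched an IRF4 peak with a gap of 0 bp, and a peak near Nek7 was left out because of an overlap of 2 bp. A gap of at most 100 bp to a BATF or IRF4 peak was found for 402 members (3.66%), and of at most 500 bp for 1049 (9.54%).

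Most JunB-alone peaks near genes lay at a distance from promoters. Within 1 kb of a TSS were 614 of them (5.58%, 5.16 to 6.03), between 1 and 10 kb 3084 (28.0%), and between 10 and 100 kb 7299 (66.4%). The promoter share of peaks with both BATF and IRF4 was 5.32%. Stratified over 20 strata of the list, the Mantel-Haenszel odds ratio was 0.937 (95% interval 0.806 to 1.09), so that a difference was not detectable and its direction changed with the definition of overlap. The centres of 50.3% lay in introns, 4.13% in exons, and 45.6% between protein-coding genes. Introns held 55.0% of the peaks with both partners (odds ratio 0.878, 0.818 to 0.942). On chromosome X were 503 JunB-alone peaks (4.57%) compared with 1.86% of those with both partners (odds ratio 1.81, 1.44 to 2.27). The share on chromosome X was larger still, 6.79%, among the 5114 JunB-alone peaks beyond 100 kb.

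The AP-1 palindrome was present at 2029 of 10997 JunB-alone peaks (18.5%, 17.7 to 19.2) in a window of 1 JunB peak width around the centre, searched on both strands. At peaks with BATF and IRF4 it was present at 3572 of 7590 (47.1%). JunB-alone peaks thus carried it less often than peaks of like place in the list (odds ratio 0.389, 0.360 to 0.420). They carried it more often than flanking sequence: of 10540 windows of the same width 5 kb downstream, clear of the peaks of all 4 lists, 4.05% held a match (odds ratio 5.36, 4.81 to 5.97). JunB-alone peaks beyond 100 kb lay between these, with 9.70% (odds ratio of near against far peaks 1.93, 1.74 to 2.15). In all comparisons with peaks that had both partners, sequence had not been used to choose the members. The classes had, however, been chosen by BATF and IRF4 peaks, so contrasts at sites these proteins bind are not independent of the choice.

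The AP-1 share fell along the list. In the first part it was 43.2% (36.0 to 50.5) of JunB-alone peaks and 56.1% (54.0 to 58.2) of peaks with both partners. In the last part it was 12.2% (10.6 to 14.0) and 35.5% (28.9 to 42.6). The intervals of the 2 classes did not overlap in any of the 10 parts. Flanking windows stayed between 3.23% and 5.71%, so the JunB-alone peaks exceeded them in the last part of the list as well.

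**Figure D2:**
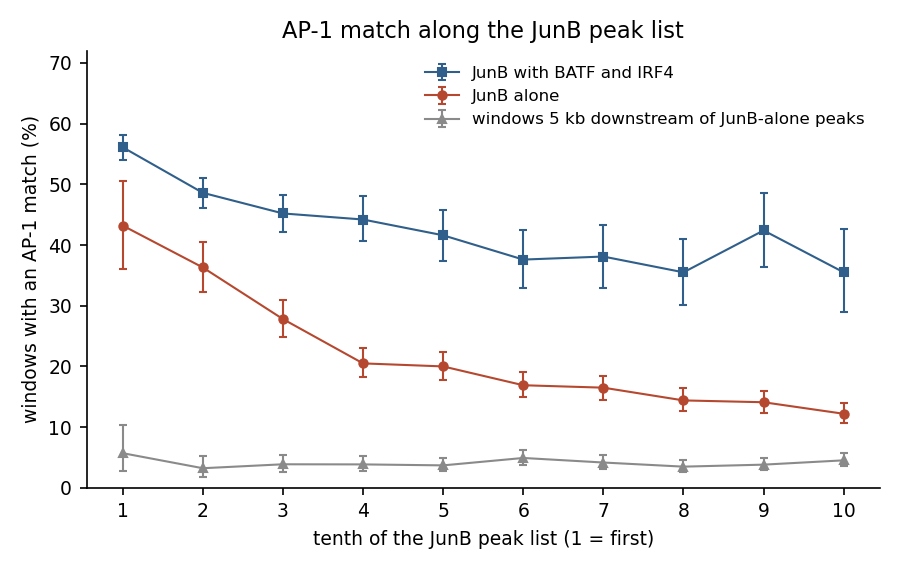
Share of windows of 1 JunB peak width with a match to TGANTCA (%) in 10 parts of equal size along the JunB list for JunB-alone peaks, peaks with BATF and IRF4, and windows 5 kb downstream of JunB-alone peaks, with exact binomial 95% intervals. JunB-alone peaks fell from 43.2% to 12.2% and stayed between the other classes.

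Where JunB-alone peaks held the palindrome, it was centred. The match nearest to the centre lay within 25 bp of it in 54.9% of the 2029 peaks (52.7 to 57.1), compared with 62.5% (60.9 to 64.1) of peaks with both partners and 35.4% (30.8 to 40.1) of flanking windows with a match. The median distance was 23, 18, and 35 bp, respectively. The canonical form TGAGTCA, counted on both strands and thus including the TGACTCA of the N4bp1 peak, made up 73.4% of JunB-alone peaks with a match (71.5 to 75.3), 84.2% with both partners (83.0 to 85.4), and 57.8% in flanking windows (53.0 to 62.6). More than 1 match was present at 229 JunB-alone peaks.

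**Figure D3:**
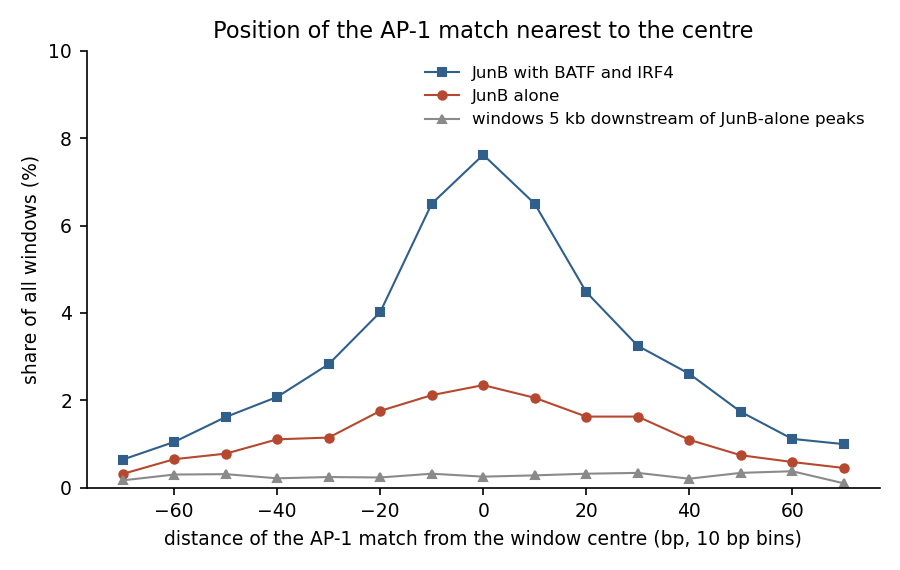
Distance of the AP-1 match nearest to the window centre (bp, bins of 10 bp) as a share of all windows of each class (%). In the central bin JunB-alone peaks reached 2.35%, peaks with BATF and IRF4 7.62%, and windows 5 kb downstream 0.256%, and only the last showed no maximum at the centre.

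Composite elements were scarce at JunB-alone peaks. The AICE consensus, read as TGANTCA or TGANTAA with GAAA directly, or with TTTC 4 bases, ahead of it, was present at 180 peaks (1.64%, 1.41 to 1.89) compared with 6.94% with both partners (odds ratio 0.344, 0.282 to 0.420) and 0.228% of flanking windows. AICE matches can contain an AP-1 match, so both counts share sites. The same holds for the Maf recognition element, TGC placed before TGANTCA, present at 0.809% (odds ratio 0.562, 0.411 to 0.768). The interferon-stimulated response element, GAAA repeated after 2 bases, which IRF proteins bind, was present at 3.58% (odds ratio 0.495, 0.423 to 0.579) and 2.33% of flanking windows. Since BATF and IRF4 peaks defined the classes, the contrasts of AICE and this element with shared peaks are not independent of the choice.

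Several other motifs were also less frequent than at peaks with both partners. Of 18 motifs compared, 9 were lower in JunB-alone peaks by the 95% interval, 3 were higher, and the intervals of 6 included 1. The lowest odds ratio among these other than AICE and AP-1 belonged to the cAMP response element, TGACGTCA, which Jun-ATF dimers bind and which was present at 0.173% (0.404, 0.205 to 0.796). The NF-kB consensus was present at 1.35% (0.449, 0.352 to 0.572). The RUNX motif, read as TGTGGTT, was present at 5.79% (0.630, 0.554 to 0.717). These are sites of factors that act with AP-1 in activated T cells. ETS sites, read as CNGGAAG, were present at 8.79% (0.720, 0.643 to 0.807), and STAT sites, TTC and GAA with 3 bases between, at 6.27% (0.683, 0.601 to 0.776).

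Not all of these motifs exceeded flanking sequence. For ETS and NF-kB the intervals of the odds ratios against flanking windows included 1 (0.854 to 1.03 and 0.820 to 1.31). Flanking windows were not matched for base composition, with a median GC content of 42.4% compared with 38.4% for JunB-alone peaks near genes. The part of composition in these contrasts was not tested. The GATA motif AGATAA was present at 13.7%, compared with 9.25% of flanking windows (odds ratio 1.56, 1.43 to 1.70) and 15.6% of JunB-alone peaks beyond 100 kb. Its odds ratio against peaks with both partners was 0.955 (0.864 to 1.06). The E-box, read as CACGTG, likewise had an interval that included 1 against peaks with both partners, as had the forkhead motif, which was read as TGTTTAC. The same was true of the Sp/KLF motif, read as GGGCGGG, and of NRF1. The TCF/LEF motif ACAAAGG, bound by factors of the resting T cell program, was present at 3.03% compared with 3.61% of flanking windows and was the one motif whose interval lay below 1 in that comparison (odds ratio 0.835, 0.719 to 0.970).

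The CTCF consensus, which marks insulator sites, went the other way. It was present at 83 JunB-alone peaks (0.755%, 0.602 to 0.935), 0.198% of peaks with both partners (odds ratio 2.22, 1.21 to 4.09), and 0.0949% of flanking windows. With a narrower search window the interval included 1 (1.47, 0.773 to 2.79). NFY (CCAATNA) at 7.17% and YY1 (AANATGGCG) at 0.200% were the other motifs with higher odds, 1.16 (1.00 to 1.34) and 4.22 (1.34 to 13.3). Peaks with both partners held NFY at 5.32% and YY1 at 0.145%. Without strata the odds ratio of YY1 was 1.38 (0.669 to 2.85). For both motifs, the interval included 1 when the 214 stretches of the list were used as strata (0.998 to 1.33 and 0.887 to 10.2).

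JunB-alone peaks at promoters differed in sequence from the distant ones. Within 1 kb of a TSS, the GC box bound by Sp/KLF factors was present at 11.6% (9.14 to 14.4), compared with 0.548% (0.392 to 0.746) at 10 to 100 kb. ETS was present at 16.6% and 8.04%, YY1 at 2.12% and 0.0548%, and NRF1 at 2.44% and 0.0548%. These are motifs common in promoters. AP-1 was less frequent there, at 13.5% (10.9 to 16.5) compared with 20.5% (19.1 to 22.0) at 1 to 10 kb, and at 10 to 100 kb its interval was 17.1 to 18.9. Median GC content was 45.0% within 1 kb, 39.7% at 1 to 10 kb, and 37.7% at 10 to 100 kb. Over all JunB-alone peaks near genes it was 38.4% (quartiles 33.1 and 44.4), below the 41.7% of peaks with both partners and the 42.4% of flanking windows. Beyond 100 kb it was 33.1%.

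IRF4 was detected at few JunB-alone peaks in Junb-deficient cells. By the rule none overlapped an IRF4 peak in Junb-sufficient cells, but 633 (5.76%, 5.33 to 6.21) overlapped one in Junb-deficient cells, a list the rule did not use. Over all JunB peaks near genes the share was 39.3%, and it was 81.9% at peaks with both partners. Those peaks had been chosen for an IRF4 peak in Junb-sufficient cells and the members for its absence. Their contrast therefore follows in part from the choice and is given as a description. Of 10617 flanking windows clear of peaks in Junb-sufficient cells, 67 overlapped an IRF4 peak of Junb-deficient cells (0.631%). The windows were not matched for distance to a TSS. Of JunB-alone peaks beyond 100 kb 1.70% overlapped such a peak (odds ratio of near against far peaks 3.28, 2.61 to 4.10). IRF4 peaks of Junb-deficient cells were also denser around the near peaks. Within 10 kb, 49.6% of the near peaks and 15.7% of the far ones had such a peak. The part of this density in the odds ratio was not tested. The overlapping share of JunB-alone peaks was 14.8% (12.1 to 17.9) within 1 kb of a TSS, 6.10% at 1 to 10 kb, and 4.85% (4.37 to 5.37) at 10 to 100 kb. Binding just under the threshold in 1 list and just over it in the other cannot be told apart from a difference between the genotypes, which had 1 library each.

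**Figure D4:**
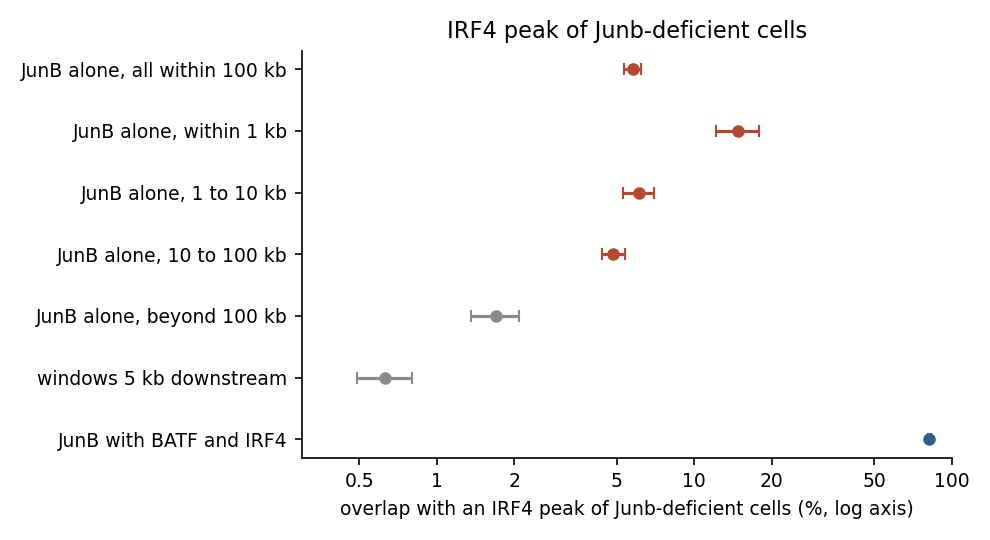
Share of peaks or windows (%, log axis) that overlapped an IRF4 peak of Junb-deficient cells, with exact binomial 95% intervals. JunB-alone peaks within 1 kb of a TSS reached 14.8%, above the 4.85% at 10 to 100 kb and the 1.70% beyond 100 kb. Windows 5 kb downstream of JunB-alone peaks within 100 kb, not matched for distance to a TSS, reached 0.631%. JunB peaks with BATF and IRF4, a class chosen for an IRF4 peak in Junb-sufficient cells, reached 81.9%.

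The 633 peaks with an IRF4 peak in Junb-deficient cells were compared with the other 10364 over 18 motifs. The interferon-stimulated response element was more frequent among them, 8.21% compared with 3.30% (odds ratio 2.58, 1.90 to 3.50), as were NF-kB (4.27% and 1.18%, 3.76, 2.46 to 5.75), STAT (11.7% and 5.93%, 2.07, 1.60 to 2.67), RUNX (10.1% and 5.53%, 1.87, 1.42 to 2.45), and GATA (19.9% and 13.4%, 1.58, 1.29 to 1.93). AICE was present at 20 of the 633 (3.16%) and 1.54% of the others (1.86, 1.16 to 2.98). The cAMP response element had the largest odds ratio, with 6 of the 633 (0.948%) and 0.125% of the others (8.15, 3.03 to 21.9). ETS was present at 13.6% and 8.50% (1.68, 1.32 to 2.13). The higher odds were thus not confined to IRF sites. No motif had an interval below 1. The AP-1 palindrome was present at 21.2% and 18.3%, and the interval of its odds ratio included 1 (1.11, 0.908 to 1.35). The 633 also lay nearer to promoters, with 14.4% within 1 kb of a TSS (odds ratio 3.15, 2.48 to 4.01). Beyond 1 kb, the odds ratio of the interferon-stimulated response element was 2.78 (2.02 to 3.82) and of NF-kB 3.86 (2.44 to 6.11). There the interval for Sp/KLF included 1 (2.03, 0.917 to 4.48), whereas it had been 3.66 (2.35 to 5.70) over all distances, and that for AP-1 no longer did (1.25, 1.02 to 1.54).

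JunB-alone peaks near genes were nevertheless closer to other binding than distant ones. The median distance to the nearest IRF4 peak of Junb-sufficient cells was 10465 bp and to the nearest BATF peak 24953 bp. For JunB-alone peaks beyond 100 kb the same distances were 280783 and 376235 bp. Within 10 kb, 49.2% (48.3 to 50.2) of the near ones had an IRF4 peak and 33.9% (33.0 to 34.8) a BATF peak, compared with 16.1% and 11.7% of the far ones. These distances exclude overlap by the rule and depend on the lengths of the lists, 31093 peaks for IRF4 and 13570 for BATF. The near and far classes were split by distance to a TSS, and peaks with both partners were also more frequent near genes. They were 33.6% of JunB peaks within 100 kb and 18.8% beyond it. If the antibody field is right in place of the titles, the distances for BATF and IRF4 change places.

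Sequence present in several copies was more frequent among JunB-alone peaks. By the number of places in mm9 that hold the same 31-base words, 979 (8.90%, 8.38 to 9.45) had more than 1 copy, compared with 1.94% with both partners (odds ratio 6.11, 4.94 to 7.57) and 6.00% beyond 100 kb. More than 100 copies were counted for 0.964%. In the first part of the list the share was 20.0% (14.6 to 26.4). Such peaks held AP-1 at 5.82%, compared with 19.7% of the single-copy peaks. The study's alignment kept reads with a unique position, and how reads fell among near-identical copies was not tested.

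Multi-copy sequence stood at the first places of the list. Of the 10 JunB-alone peaks that stood first, 5 lay at the predicted genes Gm10800, Gm10722, Gm10718, Gm10106, and Gm10716, with between 2 and 88 copies. The peak at Gm10800 stood at place 3 and the one at Gm10718 at place 11. The other 5 had single-copy sequence and belonged to Alcam, Trpm6, which encodes an ion channel, and Sfi1, which encodes a centrosomal protein and held 3 of them. Among the next single-copy peaks were those in introns of Cd247 (place 551) and of Etv6 (place 689), a gene for a repressor of the ETS family, and both overlapped an IRF4 peak of Junb-deficient cells.

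By gene, 14522 of 22238 protein-coding genes (65.3%) had a JunB-alone peak within 100 kb, and 5959 of these (41.0%) had no peak with both BATF and IRF4 there. A gene had 1.46 JunB-alone peaks on average and a median of 1. When each peak was given to its nearest TSS, the genes with the most were Gm15319 with 32 and C130026I21Rik with 26, of which 28 and 26 lay in multi-copy sequence. Next came Inpp4b, a phosphoinositide phosphatase, with 22 and Akap13, a kinase-anchoring scaffold, with 19, of which 1 and 0 were multi-copy. Then followed 4930572O03Rik with 17, 4930467E23Rik with 16, A530032D15Rik with 16, and Celf2, an RNA-binding protein, with 16. All but Celf2, which had none, were mostly multi-copy. Bach2, Gm10354, and Gm17019 had 15 each, with 0, 14, and 15 in multi-copy sequence. In these 11 genes, either most of the JunB-alone peaks or at most 1 lay in multi-copy sequence. Near Inpp4b, Akap13, and Celf2 there were also 21, 16, and 12 JunB peaks of other classes.

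JunB-alone peaks were many around genes of Treg and eTreg cells, as JunB peaks were in all. The 18 genes, called eTreg-related here, are a short list that includes general Treg genes such as Foxp3, Il2ra, and Tnfrsf18, and not the study's own set of that name. For them there were 82 JunB-alone peaks of 183 JunB peaks (44.8%, 37.5 to 52.3), which is 4.56 per gene. All 18 had at least 1. The interval of the share included the 48.7% over all JunB peaks near genes. AP-1 was present at 20 of the 82 (24.4%, 15.6 to 35.1), compared with 18.5% of all JunB-alone peaks near genes. An IRF4 peak of Junb-deficient cells overlapped 8 (9.76%, 4.31 to 18.3), compared with 5.76% of all. Both intervals included the share of all.

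Icos and Ctla4 lie side by side and share peaks. Icos had 6 JunB-alone peaks of 26 and Ctla4 8 of 24. The shared peak shown above was the first of them. The nearest to Icos, at chr1:61033809-61033959, lay 0.9 kb upstream at place 10554, without an AP-1 match. Of the 8 around Ctla4, 2 held AP-1 and 3 overlapped an IRF4 peak of Junb-deficient cells, among them chr1:60873991-60874141 and chr1:60911311-60911461. Cd28, the costimulatory receptor gene next to Ctla4, had 13 of 20, of which 1 held AP-1 and 4 overlapped such an IRF4 peak. Around Cd28 most JunB peaks were JunB-alone, and around its neighbours a minor share was, in counts that overlap between the genes. Over all JunB peaks near genes the share was 48.7%, and a difference from it was not tested. Cd28 was named after its value was seen.

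The other named genes varied. Tigit, an inhibitory receptor, had 8 JunB-alone peaks of 17, and 4 held AP-1. The first of them, at chr16:43661735-43661885 in an intron 2.5 kb from the TSS, held none but overlapped an IRF4 peak of Junb-deficient cells. Prdm1 had 10 of 19, including a pair in its introns at chr10:44167221-44167371 and chr10:44168429-44168579, and these were the 2 that held AP-1. Maf had 4 of 9. Of these, 3 held AP-1, and the other, 0.2 kb upstream of the TSS at chr8:118231814-118231964, overlapped an IRF4 peak of Junb-deficient cells instead. Gata3, a transcription factor of eTreg and Th2 cells, had 4 of 8, and none held AP-1. Those upstream of Gata3 had Taf3 as their nearest gene.

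Counts near the remaining named genes differed as well. Klrg1, a lectin-like inhibitory receptor, had 3 of 5, with 1 in multi-copy sequence and none with AP-1. All of them had M6pr as their nearest gene. Gzmb had 2 of 8, both over 60 kb upstream and nearest to Atp12a. Il1rl1, which encodes the IL-33 receptor ST2, had 4 of 11, all nearest to the neighbouring genes Il1rl2, Il18r1, or Il18rap. Foxp3, the lineage-specifying factor of Treg cells, had 2 of 5, at chrX:7151501-7151651 and chrX:7248500-7248650, neither with AP-1 nor with an IRF4 peak of Junb-deficient cells. Il2ra, which encodes CD25, had 9 of 12, and 4 held AP-1, one of them in an intron at chr2:11573241-11573391. In Ikzf2 (Helios) 8 of 13 were JunB-alone, and in Il10 9 of 15.

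**Figure D5:**
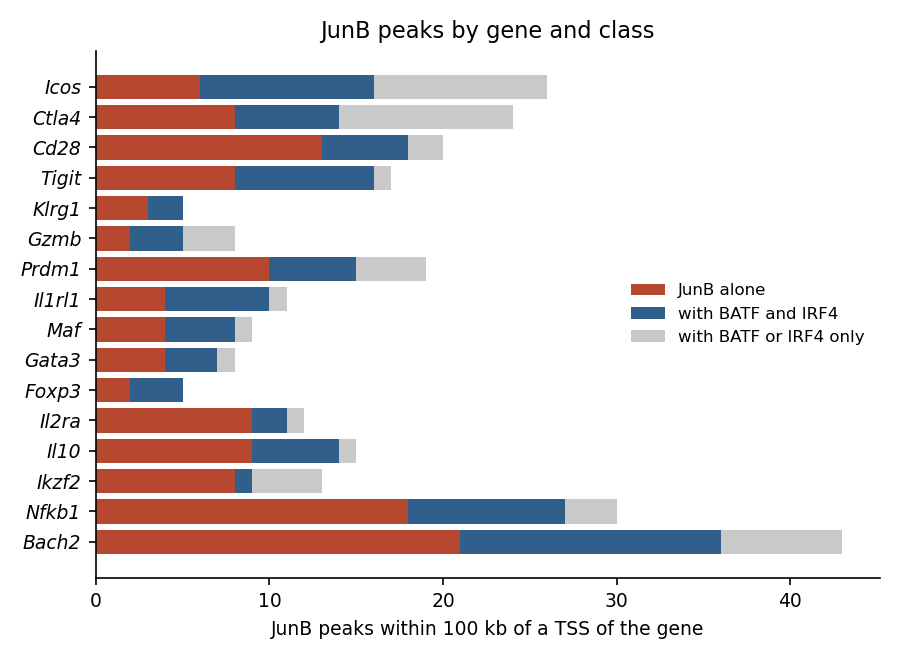
Number of JunB peaks within 100 kb of a TSS of each gene, divided into JunB-alone peaks, peaks with both BATF and IRF4, and peaks with 1 of them; a peak near several genes is counted for each. JunB-alone peaks made up 9 of 12 near Il2ra and 13 of 20 near Cd28, but 6 of 26 near Icos. Over all JunB peaks within 100 kb of a TSS the share was 48.7%.

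Across 9 gene groups the JunB-alone share ranged from 35.7% for B cell genes to 59.4% for liver, muscle, and brain genes, and the interval of each group included 48.7%. Genes of the resting T cell program had 59 of 131 (45.0%), of T-cell receptor signalling 62 of 146 (42.5%), and of NF-kB and NFAT 42 of 85 (49.4%). The AP-1 and ATF family had 44 of 102 (43.1%), and genes of MAPK feedback and the immediate early response 44 of 112 (39.3%). An IRF4 peak of Junb-deficient cells overlapped 10 of the 62 for T-cell receptor signalling (16.1%, 8.02 to 27.7), above the 5.76% of all. AP-1 was present at 34.1% (20.5 to 49.9) for MAPK feedback and 31.8% (18.6 to 47.6) for the AP-1 and ATF family, above the 18.5% of all. The intervals of the other groups included these shares of all, and differences were not tested. The numbers of JunB-alone peaks per gene were 4.92 for the resting program, 4.56 for eTreg-related genes, 3.82 for NF-kB and NFAT, 3.65 for T-cell receptor signalling, 2.93 for the AP-1 and ATF family, 2.75 for MAPK feedback, 1.57 for ribosomal protein genes, 1.36 for liver, muscle, and brain genes, and 1.00 for B cell genes. The numbers of JunB peaks of any class per gene were 10.9, 10.2, 7.73, 8.59, 6.80, 7.0, 3.14, 2.29, and 2.80 in the same order. Over all protein-coding genes the means were 3.08 for JunB peaks and 1.46 for JunB-alone peaks. Those means count a peak for every gene it lies near, whereas the group numbers do not count a shared peak again. The group numbers are therefore not on the same scale as the means over all genes.

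Within the groups, Bach2, a basic leucine zipper repressor, had the most JunB-alone peaks of the AP-1 and ATF family, 21 of 43, and Batf and Batf2 had none of 5 and 2. Nfkb1, which encodes the p105 and p50 proteins, had 18 of 30, and 7 of these held AP-1. Foxp1 led the resting program with 12 of 29, Dusp4, a MAPK phosphatase, had 7 of 12, and Lat, an adaptor of the T-cell receptor, had none of 3. Near the B cell marker Pax5 none of 4 JunB peaks was JunB-alone, and near Ms4a1 2 of 4 were. Of the Treg markers, Tnfrsf18 had 1 of 4, and near Cd4 a single JunB peak was not JunB-alone. Alb, a liver gene, had 5 of 6. The levels of these genes were not measured by the lists.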

How the data were processed

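JunB, BATF, and IRF4 ChIP-seq of activated splenic Treg cells was analysed from 4 peak lists, 1 library per condition. According to the study's methods, the authors mapped the reads to mm9 by Bowtie2 and discarded those with several positions. HOMER (version 4.8 in the submitters' processing notes) then called the peaks of each library. Per the file headers, peaks passed a false discovery rate of 0.001 and stood 4-fold above the surrounding 10 kb, with at most 1 tag per bp. The study states that each experiment was performed 2 times, and 1 library per condition was used here. The score deposited by the authors is 1 for every peak and carried no information. The lists hold no tag count per peak, so the depth behind a single peak is unknown.

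Positions were counted from 1. TSSs were 45981 positions of protein-coding transcripts in the GENCODE annotation of the same assembly, and no peak lay beyond a chromosome end. Overlap was scored from 1 bp. Motifs were matched as fixed consensus letters on both strands. NF-kB, CTCF, and NRF1 consensus sequences are given by name. Flanking windows lay 5 kb downstream by coordinate. Copies were the median over 3 words of 31 bases per peak. Shares have exact binomial (Clopper-Pearson) 95% intervals and odds ratios Robins-Breslow-Greenland 95% intervals. Peaks of 1 library are not replicates of a condition. Sequences are of the reference genome, from peaks without annotated exons, and 10 of those selected are shown.

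The members, gene groups, motifs, and alternatives were chosen with earlier results of these data known. Named were genes of the study's ChIP-seq account or of eTreg cells, the nearest genes of the first 10 members, the 10 genes with the most members with ties, genes with many or few members in the gene groups, and members at the limits of the rule. Cd28, Il2ra, Il10, Ikzf2, and Alb were named from the groups after their values were seen. The copy number, the canonical form alone, and the stretches of the list were added after seeing the data. Procedures were tested on simulated data and run in Python 3.11.15 with NumPy 2.4.6, SciPy 1.17.1, pandas 2.3.3, pysam 0.24.0, samtools 1.23.1, and matplotlib 3.10.9.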

Additional observations from a re-analysis of the deposited data

How the results depend on the processing

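The lower AP-1 and AICE odds of JunB-alone peaks against peaks with both BATF and IRF4 kept direction and side of 1 under all 13 and 12 alternatives run, with odds ratios of 0.254 to 0.453 and 0.223 to 0.419. The higher odds of a Junb-deficient IRF4 peak near genes against JunB-alone peaks beyond 100 kb did so under all 8, with 2.11 to 3.62. The JunB-alone share, 48.7%, was 45.5% with JunB peaks widened to the width of the other lists, 49.8% when the centre had to be covered, 32.6% in the first 50% of the list, 35.9% with lists of equal length, 47.7% and 47.8% with limits of 50 and 10 kb, and 47.1% with single-copy peaks only. The promoter odds ratio, 0.937, became 0.862 with widened peaks, where its interval ended just below 1, and turned to 1.01 when the centre had to be covered and 1.12 in the first 50% of the list; the cause was not tested. Median GC content, 38.4%, was 39.1% in the first 50% of the list and with a limit of 50 kb, and 40.4% with a limit of 10 kb. Exchanging BATF and IRF4 gave median distances of 10465 bp for BATF and 24953 bp for IRF4. No gene group's share left its interval with a limit of 50 kb. No paired analysis was possible because each condition has 1 library, and the spread between animals was not measured.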
